A study of Rattus norvegicus with 8 samples.

Results

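Expression of *Igf1* (ENSRNOG00000004517), *Igfbp3* (ENSRNOG00000061910) and *Igfbp5* (ENSRNOG00000017206) was examined in rat cardiac cells by RNA sequencing. These 3 genes were taken by their Ensembl IDs from the 21867 genes with estimated counts, and all 3 were among the 13849 genes that had enough counts to be tested. The symbols were assigned to the IDs beforehand, since neither the count tables nor the RefSeq annotation used here pairs them. The healthy starting cells were neonatal cardiac fibroblasts (CFs) of Wistar Kyoto rats, kept in medium with 10% fetal bovine serum (FBS). Myofibroblasts (MFs) were derived from CFs by continuous passaging in medium with 1% FBS and were left without current. The other 2 groups were MFs exposed to direct current of 1 µA/cm2 (1 µA) or 2 µA/cm2 (2 µA) for 72 h without polarity reversal. The labels place both CFs and the treated MFs in medium with 10% FBS. The medium of the untreated MFs over the 72 h was not given in the sources used here. A change of medium and the current therefore cannot be told apart. Between MFs and CFs, serum, passaging and cell state cannot be told apart either. Each group held 2 libraries that the submitters call biological replicates, although nothing says that they came from separate animals.

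Insulin-like growth factor I, encoded by *Igf1*, is a secreted ligand that acts through a receptor tyrosine kinase and promotes growth, survival and matrix production in fibroblasts. The IGF binding proteins hold the ligand outside the cell, where they lengthen its life, keep it from the receptor or carry it to the cell surface and the matrix. *Igfbp3* encodes the main IGF carrier of the blood, and *Igfbp5* encodes a binding protein that attaches to extracellular matrix. Fibroblasts secrete both, and both have been described in fibrotic tissue.

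*Igfbp3* was 17.5-fold higher in MFs than in CFs and 15.3-fold lower in microcurrent-treated MFs than in untreated MFs. *Igfbp5* went the other way, being 13.4-fold lower in MFs than in CFs, with treated libraries between the other 2 groups. *Igf1* itself was not called in any comparison. Calls came from edgeR's quasi-likelihood test over all 13849 genes and needed a 2-fold difference or more (1 on the log2 scale) together with a p below 0.05 after Benjamini-Hochberg adjustment. Between MFs and CFs, 2 of the 3 genes were called, *Igfbp3* higher and *Igfbp5* lower, where 10.4% of all genes were called in either direction. Against MFs, 1 of the 3 was called at 1 µA, where 3.92% of all genes were called, and 1 of 3 at 2 µA, where 4.62% were called. In the mean of both currents against MFs the count was again 1 of 3, beside 6.76% of all genes. That gene was *Igfbp3* each time, and DESeq2 called it in all 3 comparisons and *Igfbp5* as well at 2 µA and in the mean of both. Against CFs, none of the 3 was called by edgeR at 1 µA (6.51% of all genes), with *Igfbp5* at an unadjusted p of 0.00804, and none at 2 µA (5.02% of all genes), with all 3 unadjusted p-values above 0.05. DESeq2 called *Igfbp5* between 1 µA and CFs and none of the 3 between 2 µA and CFs. Between the currents none of the 3 was called by edgeR or by DESeq2, and none had an unadjusted p below 0.05 in edgeR, beside 0.00722% of all genes called.

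The estimated counts of a library summed to between 26473085 and 37903701. Replicates differed by more than sampling noise in all 4 groups, the chi-square per gene being lowest in MFs (16.9) and highest in CFs (119), so no library was counted as a copy of another. Levels are given as CPM, the counts scaled to a common library size after TMM adjustment. They are not corrected for gene length, so they compare groups for 1 gene and not 1 gene with another. These are bulk cultures, in which fewer cells that express a gene and less RNA per cell cannot be told apart. The cell types named by the labels were not checked against marker genes, because those need symbols for the IDs.

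**Figure D1:**
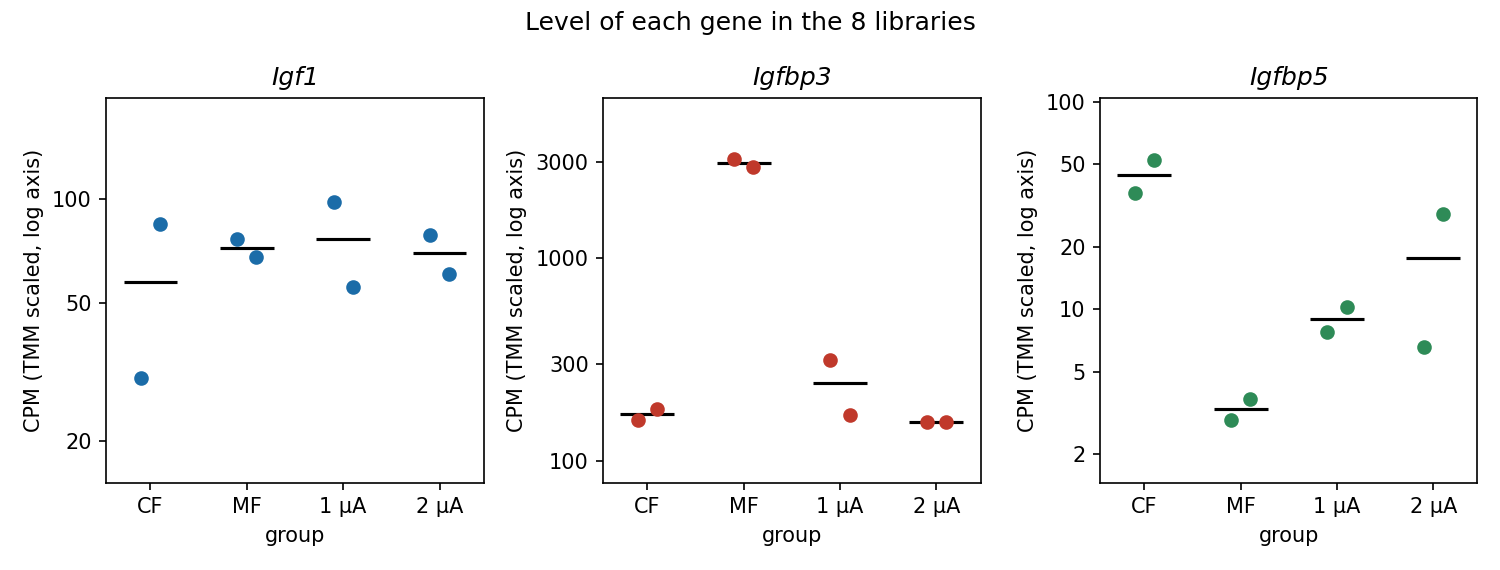
Level of each gene in TMM-scaled CPM on a log axis, with 1 panel per gene, 1 point per library and a black line at the mean of the 2 libraries in each group. Igfbp3 is at 2824 and 3110 CPM in the 2 MF libraries and at no more than 314 in the other 6. Igfbp5 is lowest in MF and highest in CF, with 1 of the 2 µA libraries far above the other, and the Igf1 groups overlap.

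In CFs, *Igfbp3* measured 159 and 179 CPM, from estimated counts of 6013 and 5475. In the MF libraries it reached 3110 and 2824 CPM, from estimated counts of 83180 and 75059. These counts were 0.307% and 0.284% of everything assigned to genes in those libraries, against 0.0155% to 0.0323% in the other 6. The 2 groups did not overlap, and each varied little, with means of 169 ± 14.0 CPM (SD, n = 2) in CFs and 2967 ± 202 CPM (SD, n = 2) in MFs. The log2 fold change of MFs against CFs was 4.13 with a standard error of 0.31 (adjusted p = 0.00143 from edgeR). On a linear scale the 95% interval ran from 10.6-fold to 28.9-fold. Among all genes tested, this was the 132nd highest fold change and the 29th smallest p, while the median gene had a log2 fold change of -0.03. The call held in all 8 fits that left out 1 library, with log2 fold changes from 4.06 to 4.22. Both ends of that range came from fits without a CF or MF library. Leaving out a treated library kept both arms of this comparison whole, so those fits hardly try it.

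After microcurrent, *Igfbp3* measured 314 and 168 CPM at 1 µA and 156 and 156 CPM at 2 µA. The highest of the 4 treated libraries thus lay far below the lower MF library. Estimated counts were 9337 and 5094 at 1 µA and 4842 and 4813 at 2 µA. Against MFs, the log2 fold change was -3.62 ± 0.30 (SE) at 1 µA, or 12.3-fold lower (95% interval 7.54-fold to 20.1-fold, adjusted p = 0.00687 from edgeR). At 2 µA it was -4.25 ± 0.31 (SE), or 19.1-fold lower (95% interval 11.5-fold to 31.6-fold, adjusted p = 0.00360 from edgeR). For the mean of both currents it was -3.94 ± 0.23 (SE), with an adjusted p of 0.00106 from edgeR, the 29th lowest fold change and the 7th smallest p of all genes tested. The MF libraries enter both this comparison and that of MFs with CFs, so the 2 changes are not independent of each other. Leaving out MF replicate 1 or 2 ended the call at 1 µA, with log2 fold changes of -3.55 and -3.69. The calls at 2 µA and for the mean of both held in all 8 fits without 1 library. Some of those fits left out a library of neither arm, namely CF or 1 µA for the call at 2 µA and CF for the mean.

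The comparison of treated cells with CFs uses no MF library in either arm. There *Igfbp3* had a log2 fold change of 0.51 at 1 µA (95% interval -0.13 to 1.15, adjusted p = 0.279 from edgeR) and of -0.12 at 2 µA (95% interval -0.76 to 0.52, adjusted p = 0.830 from edgeR). The interval at 1 µA allows from 1.09-fold lower to 2.22-fold higher than CFs, and that at 2 µA from 1.69-fold lower to 1.43-fold higher. In order of mean level, MFs stood first, followed by 1 µA at 241 ± 103 CPM (SD, n = 2), CFs at 169 and 2 µA at 156 ± 0.21 CPM (SD, n = 2). Of these neighbours, MFs and 1 µA differed beyond their spread, 1 µA and CFs did not, and CFs and 2 µA did not. The 2 µA libraries were close to each other, whereas 1 µA replicate 1 held 1.87 times the level of replicate 2, a replicate difference no smaller than that of 95.4% of the genes in that group. Without that library the log2 fold change of 1 µA against CFs was -0.01, and without replicate 2 it was 0.89 (adjusted p = 0.0655 from edgeR). Between the currents, the log2 fold change of 2 µA against 1 µA was -0.63 (95% interval -1.27 to 0.01, adjusted p = 1 from edgeR). It was -0.11 without 1 µA replicate 1 and -1.003 without 1 µA replicate 2, with an adjusted p of 1 from edgeR in both fits.

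The bases before the RefSeq start of *Igfbp3* are shown because this gene had a called change both in MFs and after microcurrent, and no measurement here bears on the window itself. It covers 250 bases on the minus strand of build GRCr8, chr14:86277945-86278194, written 5′ to 3′ and ending at the base before the start. Capitals mark the single match to TATATA, which reads the same on both strands and lies 46 to 41 bases before the start.
Igfbp3: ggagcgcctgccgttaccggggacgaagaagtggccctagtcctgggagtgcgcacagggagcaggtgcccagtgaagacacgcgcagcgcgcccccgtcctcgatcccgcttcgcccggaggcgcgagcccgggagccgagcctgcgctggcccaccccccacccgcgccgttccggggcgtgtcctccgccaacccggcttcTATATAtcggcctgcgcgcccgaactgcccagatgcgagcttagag
This run of letters was found in 5.45% of 33469 windows of the same length. No match to TATAAA was found on either strand, whereas 12.9% of the windows hold one. The letters GGGCGG (30.5% of windows) did not occur on either strand, nor did CCAAT (34.0% of windows). Bases G and C made up 71.6% of the window, against a median of 51.2% over all windows.

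*Igfbp5* measured 36.3 and 52.3 CPM in CFs, from estimated counts of 1370 and 1599. In MFs it measured 2.92 and 3.69 CPM, from estimated counts of 78 and 98, which makes these the least precisely counted values of the 3 genes. No MF library came near a CF library, with means of 3.30 ± 0.54 CPM (SD, n = 2) and 44.3 ± 11.3 CPM (SD, n = 2). The log2 fold change of MFs against CFs was -3.74 with a standard error of 0.68 (adjusted p = 0.0152 from edgeR). The 95% interval ran from 4.39-fold to 40.9-fold lower, and the change was the 50th lowest of all genes tested. Leaving out MF replicate 1 or 2 ended the call (adjusted p = 0.123 and 0.0970 from edgeR) with log2 fold changes of -3.58 and -3.92.

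In the treated libraries *Igfbp5* measured 7.80 and 10.2 CPM at 1 µA and 6.58 and 29.0 CPM at 2 µA. All 4 lay above both MF libraries and below both CF libraries. Estimated counts were 232 and 310 at 1 µA and 205 and 895 at 2 µA, so 2 µA replicate 2 stood apart with 4.40 times the level of replicate 1. That replicate difference was no smaller than in 99.0% of the genes tested in the 2 µA group. In the whole-number count matrix, a second table of counts for the same libraries, the 2 µA libraries held 180 and 796 counts, with the same gap. Against MFs, the log2 fold change was 1.45 ± 0.65 (SE) at 1 µA (adjusted p = 0.216 from edgeR), 2.43 ± 0.66 (SE) at 2 µA (adjusted p = 0.0693 from edgeR) and 1.94 ± 0.60 (SE) for the mean of both (adjusted p = 0.0753 from edgeR). None of these passed the adjusted threshold, although the interval for the mean of both ran from 1.42-fold to 10.3-fold higher. DESeq2 on the same counts called the comparison at 2 µA (adjusted p = 0.000208) and the mean of both (adjusted p = 0.000617), but not that at 1 µA (adjusted p = 0.0568).

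For *Igfbp5*, the values that include 2 µA moved with which of its libraries was left out, while those of 1 µA kept their size. Spread was estimated for each gene over all 8 libraries, so the 2 µA libraries also enter the p-values of 1 µA against MFs and against CFs. Of the 8 fits without 1 library, only the 2 that left out a 2 µA library gave any call against MFs. Without 2 µA replicate 2, the log2 fold change against MFs was 1.00 at 2 µA (adjusted p = 0.120 from edgeR), 1.45 at 1 µA (adjusted p = 0.0307) and 1.22 for the mean of both (adjusted p = 0.0300), so the last 2 were then called. Without 2 µA replicate 1, it was 3.13 at 2 µA (adjusted p = 0.0200 from edgeR), 1.45 at 1 µA (adjusted p = 0.0308) and 2.29 for the mean of both (adjusted p = 0.00955), all called. Against CFs, the log2 fold change of *Igfbp5* was -2.30 at 1 µA (95% interval -3.77 to -0.82, adjusted p = 0.0674 from edgeR) and -1.32 at 2 µA (95% interval -2.73 to 0.10, adjusted p = 0.237). The difference at 1 µA was called by DESeq2 (adjusted p = 0.000326). Of the 8 edgeR fits without 1 library, only the 2 that left out a 2 µA library called it. The difference at 2 µA was called in 1 of those 8 fits, that without 2 µA replicate 2 (log2 fold change -2.75). Without 2 µA replicate 1 it was -0.61. From high to low the groups stood at CFs, then 2 µA with 17.8 ± 15.8 CPM (SD, n = 2), 1 µA with 9.02 ± 1.73 CPM (SD, n = 2) and MFs. No neighbours in this order were told apart by edgeR. The log2 fold change of 2 µA against 1 µA was 0.98 (95% interval -0.46 to 2.42, adjusted p = 1 from edgeR) and turned to -0.45 without 2 µA replicate 2.

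**Figure D2:**
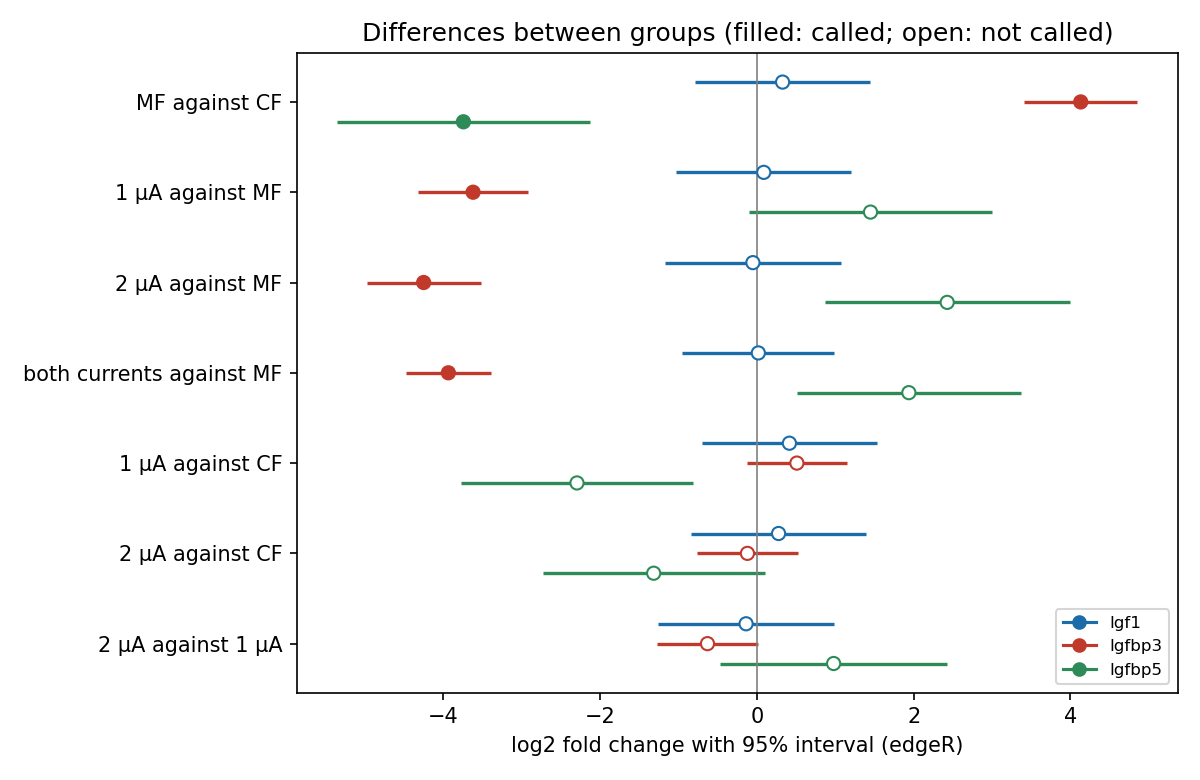
Log2 fold change of each gene in the 7 comparisons, with horizontal lines for the 95% interval from edgeR, filled circles for calls and open circles for the rest. Igfbp3 lies at 4.13 for MF against CF and between -4.25 and -3.62 for the 3 comparisons with MF, while every Igf1 interval crosses 0.

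*Igf1*, the ligand, measured 30.4 and 84.9 CPM in CFs, from estimated counts of 1146 and 2594. The MF libraries measured 76.4 and 68.1 CPM and lay between the 2 CF libraries. At 1 µA the levels were 97.8 and 55.7 CPM and at 2 µA they were 78.6 and 60.9 CPM, so all groups overlapped. In order of mean level, the groups stood at 1 µA with 76.8 ± 29.7 CPM (SD, n = 2), MFs with 72.3 ± 5.83, 2 µA with 69.7 ± 12.5 and CFs with 57.6 ± 38.6, and no neighbours differed beyond their spread. MFs against CFs gave a log2 fold change of 0.33 (95% interval -0.79 to 1.45, adjusted p = 0.659 from edgeR). Both currents together against MFs gave 0.02 (95% interval -0.95 to 0.99, adjusted p = 0.982 from edgeR). That interval allows from 1.93-fold lower to 1.98-fold higher, so a change within that range remains compatible with these libraries. At 1 µA and 2 µA alone the log2 fold changes against MFs were 0.09 and -0.05 (adjusted p = 0.927 and 0.956 from edgeR). Against CFs they were 0.41 and 0.28 (adjusted p = 0.622 and 0.773 from edgeR), and 2 µA against 1 µA gave -0.14 (95% interval -1.26 to 0.98, adjusted p = 1 from edgeR).

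The 2 CF libraries were far apart for *Igf1*. CF replicate 2 held 2.79 times the level of replicate 1, a replicate difference no smaller than that of 96.4% of the genes in that group. Without CF replicate 1 the log2 fold change of MFs against CFs was -0.22, and without CF replicate 2 it was 1.25 (adjusted p = 0.0522 from edgeR). The same pair of fits gave -0.13 and 1.33 for 1 µA against CFs and -0.26 and 1.20 for 2 µA against CFs, none of them called. Within 1 µA, replicate 1 held 1.75 times the level of replicate 2, the same direction as for *Igfbp3* in these 2 libraries. The whole-number count matrix gave *Igf1* counts of 796 and 1943 in the CF libraries, from 69.5% to 75.6% of the estimated counts over all 8 libraries, so the gap between the CF libraries was also present there. For *Igfbp5* the matrix held 85.7% to 91.0% of the estimated counts. *Igfbp3* was not analysed in the matrix, and its values rest on the estimated counts alone.

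**Figure D3:**
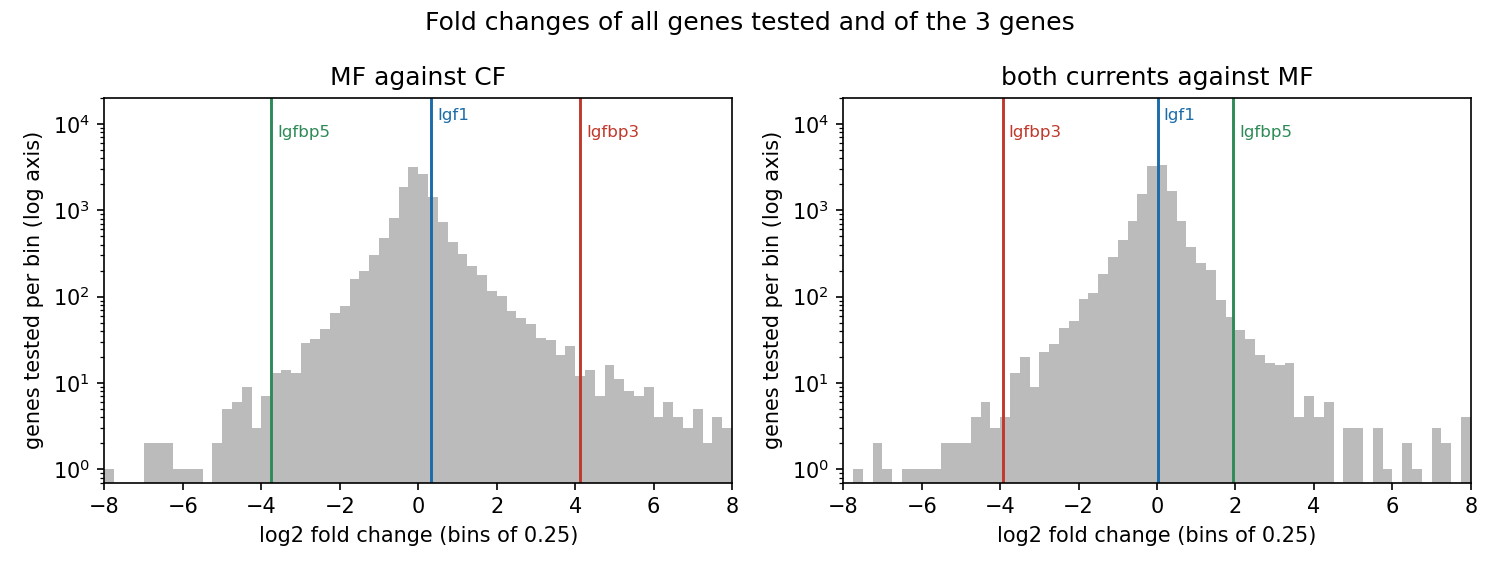
Histograms of the log2 fold changes of all 13849 genes tested in bins of 0.25, on a log axis, for MF against CF (left) and the mean of both currents against MF (right), with coloured lines at the 3 genes. Igfbp3 lies in the upper tail on the left and the lower tail on the right, Igfbp5 on the opposite side of each, and Igf1 near the middle of both. Outside the plotted range lie 33 genes on the left and 5 on the right.

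The authors' normalized values carry a correction for the average length of the transcripts assigned to each gene, and this length can be read relative to the rest of the library. For *Igf1*, a gene with several transcripts, it ranged from 0.973 in 2 µA replicate 1 to 1.04 in CF replicate 2. For *Igfbp3* it stayed between 0.998 and 1.00 and for *Igfbp5* between 0.988 and 1.01. Taking it into the fit moved no call of the 3 genes.

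The 8 vst values of each gene, which are variance stabilised values on a log2 scale deposited by the authors, were centred and compared with those of the other 13848 genes tested. The measure of likeness was the root mean square difference over the 8 libraries. The gene most like *Igfbp3* was ENSRNOG00000003183, at a difference of 0.53 where *Igfbp3* itself varied by 1.77 around its mean, and no gene came within 0.5. It had a log2 fold change of 2.85 for MFs against CFs and of -3.32 for both currents against MFs. ENSRNOG00000015318 was most like *Igfbp5*, at a difference of 0.35, and was the only gene within 0.5. Among the treated libraries it was highest in 2 µA replicate 2, with an estimated count of 2777 against 850 in replicate 1. Both genes were chosen on these same 8 libraries, so the patterns they share with *Igfbp3* and *Igfbp5* are no separate evidence. For *Igf1* the nearest gene was ENSRNOG00000061779 at 0.10, but 5911 genes lay within 0.5. On log2 CPM in place of vst values, another gene came first for each of the 3. On that scale 3 genes lay within 0.5 of *Igfbp3* and 5 within 0.5 of *Igfbp5*, so how far these 2 stood alone depended on the scale. The files do not pair these IDs with symbols.

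**Figure D4:**
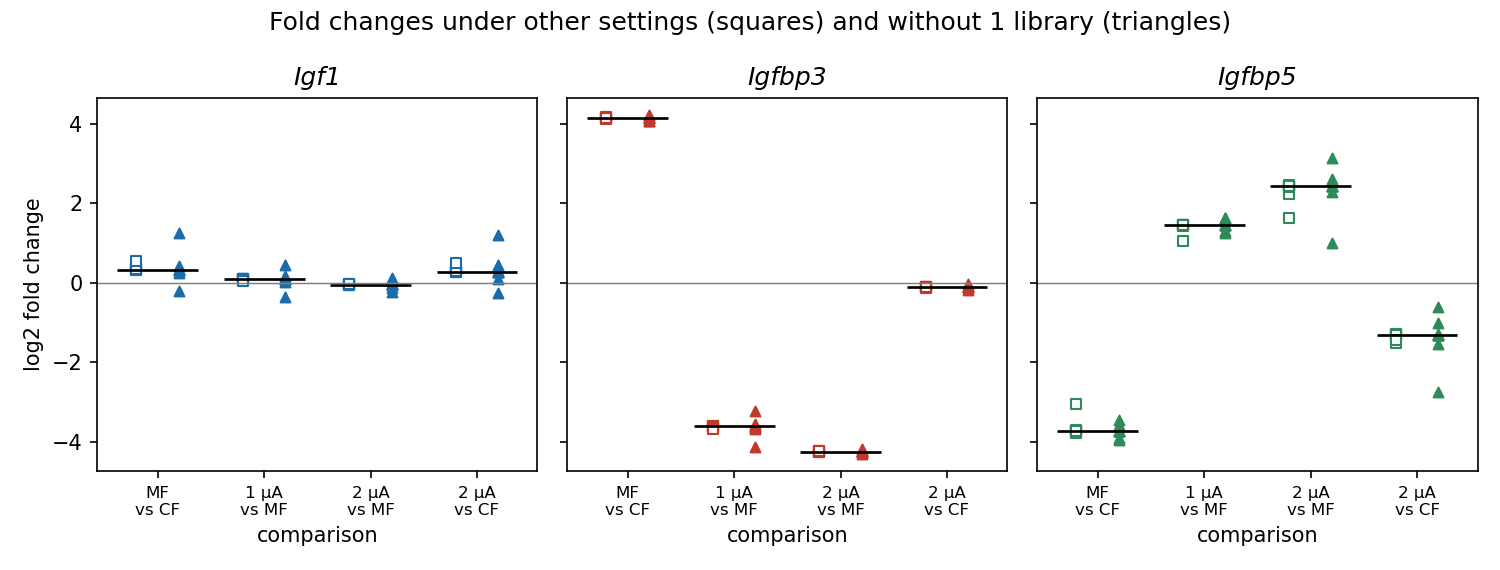
Log2 fold changes of each gene in 4 comparisons under other settings (open squares) and with 1 library left out (triangles), with a black line at the value reported. Igfbp3 stays between 4.06 and 4.22 for MF against CF, Igfbp5 spreads from 1.00 to 3.13 for 2 µA against MF, and Igf1 changes sign when single libraries are left out.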

How the data were processed

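RNA was sequenced from 8 libraries, 2 per group, grouped by the sample titles. Salmon (rn6 transcriptome) and tximeta gave the estimated counts that the authors deposited, along with normalized values (a signal, in which counts are divided by DESeq2 factors that include transcript length), and variance stabilised (vst) log2 values. A second deposited table of whole-number counts covers 13341 genes, and its pipeline is not given in the sources used here. The submitters' processing notes name STAR and DESeq2 1.28.1.

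Estimated counts were rounded and fitted with edgeR 4.0.16 (limma 3.58.1, R 4.3.3), using filterByExpr, TMM and robust quasi-likelihood F tests with 1 coefficient per group over all 8 libraries. This left 4 residual degrees of freedom and 13849 genes. Standard errors are the log2 fold change over the square root of F. P-values measure the spread between these libraries, which may be technical. DESeq2 1.42.0 and other settings were alternatives. Figures used Python 3.11.15 and matplotlib 3.10.9.

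Named genes were the 3 genes and the gene most like each. The genes and lists were chosen with earlier results of these data known. Lists of other IGF system genes and of cell type markers were not run, because the IDs could not be matched to symbols (RefSeq table of assembly GRCr8). Protein sequences were not used here.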

Additional observations from a re-analysis of the deposited data

How the results depend on the processing

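Each log2 fold change was recomputed under up to 17 alternatives, 350 values in all, of which 316 kept the direction and the side of the threshold. Another 15 gained a call, 4 lost it and 15 changed sign. The cause of these changes was not tested. Part of the 316 was set in advance. An adjusted p alone uses the main values, so it could only add a call. Leaving out a library outside a comparison keeps both its arms whole and hardly moves the fold change. No call changed under RLE scaling, transcript length offsets or an adjusted p alone. The whole-number count matrix, in which Igfbp3 was not analysed, changed no call of Igf1 or Igfbp5. Every Igfbp3 call held under DESeq2, limma on vst values and each other setting run for it that kept all libraries. For Igfbp5, DESeq2 added calls at 2 µA against MF (2.42), for both currents against MF (1.93) and at 1 µA against CF (-2.30). The last was also called without a filter on low counts (-2.28) and with only the groups compared (-2.29), a setting that also called 1 µA against MF (1.46). For Igf1, both currents against MF changed sign with limma on vst values (-0.0095).

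Same-numbered libraries deviated together in 1 of 6 pairs of groups (correlation above 0.1). The correlations ran from -0.172 (CF with 1 µA) to 0.242 (1 µA with 2 µA). With 2 libraries per group, this check cannot decide whether the numbers pair the samples. A replicate block called Igfbp5 at 1 µA against CF (-2.28, adjusted p = 0.0399 from edgeR) and changed no other call.

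Without 1 library, Igf1 ranged from -0.22 to 1.25 for MF against CF, from -0.37 to 0.43 at 1 µA, -0.25 to 0.12 at 2 µA and -0.21 to 0.19 for both against MF, from -0.13 to 1.33 and -0.26 to 1.20 at 1 µA and 2 µA against CF, and from -0.48 to 0.32 between the currents. Igfbp3 ranged from -4.14 to -3.24 at 1 µA against MF, from -0.0081 to 0.89 at 1 µA against CF and from -1.003 to -0.11 between the currents. Igfbp5 ranged from -3.97 to -3.46 for MF against CF, from 1.24 to 1.63 at 1 µA, 1.00 to 3.13 at 2 µA and 1.22 to 2.29 for both against MF, from -2.52 to -2.01 and -2.75 to -0.61 at 1 µA and 2 µA against CF, and from -0.45 to 1.68 between the currents. A group left with 1 library was assumed to vary like the others.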
